A study of Homo sapiens with 5 samples.

Results

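The genes described here make, store, take up and break down catecholamines, the signalling molecules dopamine, noradrenaline and adrenaline. They are 9 genes, taken by name: the synthesis enzymes TH, DDC, DBH and PNMT, the cofactor enzyme GCH1, the plasma membrane transporter SLC6A2, the vesicle transporters SLC18A1 and SLC18A2, and the breakdown enzyme MAOA. All probe sets that the platform annotation assigns to these genes alone were taken, which gave 21 of the 54675 probe sets on the array. The 9 genes stand among 19775 genes that have such a probe set. Expression was measured in IMR32, an established line of human neuroblastoma cells. They had been stably transfected with a doxycycline-inducible shRNA (short hairpin RNA) that targets MEIS1, which encodes a homeobox transcription factor. Total RNA was hybridised to Affymetrix U133 Plus 2.0 arrays, with 1 array before doxycycline (0 h) and 1 after each of 24, 48, 96 and 192 h with it. Series of 5 values below follow this order. All 5 samples carry the hairpin, which the labels describe as specific for the MEIS1b form, and the labels do not say whether the cells are 1 clone or a pool. An array of cells without the hairpin, or kept without doxycycline to a later time, was not analysed here.

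Catecholamine synthesis starts from tyrosine. TH makes L-DOPA with the help of tetrahydrobiopterin, whose synthesis starts with GCH1. DDC then makes dopamine, DBH makes noradrenaline inside vesicles, and PNMT makes adrenaline. SLC18A1 and SLC18A2 load the amines into vesicles, SLC6A2 takes released noradrenaline back into the cell, and MAOA oxidises it on the mitochondrial outer membrane. Sympathetic neurons and chromaffin cells use this chain, and neuroblastoma, a tumour of the same lineage, often releases catecholamine metabolites.

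Values are MAS5 signals, and the number of arrays limits the precision. With 1 array per time point, no difference between 2 arrays has a replicate check. A test was possible only for a trend over the 5 arrays, as the slope of log2(signal + 4.7) on the time step (0 to 4). The fitted change is that slope times 4 steps, given ± its standard error (SE). This scale understates changes of dim genes. Folds, log2 ratios and the MEIS1 percentages below were also taken after adding 4.7 to the signals. They are thus smaller changes than the printed signals alone would give. A gene was tested if its brightest probe set had a mean signal of at least 17.9, and it is said to have risen or fallen if its limma p, adjusted by Benjamini-Hochberg over the 11944 genes tested, was below 0.05. The limma p-values measure the scatter of these single arrays around a straight line. For each gene, limma draws this scatter toward that of genes of similar signal (9.07 prior against 3 residual degrees of freedom). Of the 9 genes 6 were tested. TH, SLC18A1 and SLC18A2 lay below the signal minimum and are given by their signals. Of the 21 probe sets 13 lay above it.

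The arrays were close in overall signal, with medians between 16 and 19. The brighter MEIS1 probe set read 74.9% to 81.5% of its 0 h level on the induced arrays and the other 74.5% to 93.9%, and MEIS1 did not pass the trend test (fitted log2 change -0.33 ± 0.14, limma adjusted p = 0.251). Poly-A spike-ins, bacterial transcripts that monitor the labelling, had mean log2 differences from 0 h of 0.10, -0.45, -0.61 and -0.25 in the order of the induced arrays. Of the neuroblastoma markers 9 of 10 had a named probe set and all 9 were tested. MYCN read between 3957.2 and 4418.4, GATA3 between 2681 and 3339.5, and PHOX2A between 754 and 1202.7, while CHGA (fitted log2 change 1.04) and STMN2 (2.41) rose. STMN2 read 10, 17.5, 23.3, 73.3 and 58.4, so it lay below the signal minimum at 0 and 24 h. Its mean passed the minimum through the later arrays, where it was high, so its call carries little weight. STMN2 is part of the median and counts given below for the 9. The fitted change was 1.0 for HAND2, 0.75 for ISL1, 0.34 for NCAM1 and -0.0083 for DBH, which is also one of the catecholamine genes. The median of the 9 was 0.62, against 0.0027 for all tested genes. Of the 9, 8 had a positive fitted change, 6 had an unadjusted p below 0.05 and 8 were highest at 96 h. The summed signal was 21.7 to 43.2 for 4 Schwann cell markers, 34.5 to 57.4 for 5 adrenal cortex markers and 41.8 to 85.5 for 6 blood and endothelial markers. Each of these 3 lists had 1 gene above the signal minimum, and none passed. In an RNA pool, more cells of a kind and more RNA per cell cannot be told apart.

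Of the 6 tested members only DDC rose and none fell, where 2.02% of all tested genes rose and 1.46% fell (3.47% in either direction). At an unadjusted p below 0.05 stood 2 of the 6, DDC and MAOA, against 17% of all tested genes. The median fitted log2 change of the 6 was 0.33, against 0.0027 for all tested genes. This median falls in a wide gap between MAOA (0.65) and SLC6A2 (0.0021). Above it are also DDC (2.13) and PNMT (1.04), below it DBH (-0.0083) and GCH1 (-0.02). PNMT passed the signal minimum only through its high 48 and 192 h arrays, so the median does not show a shared shift of the members.

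**Figure D1:**
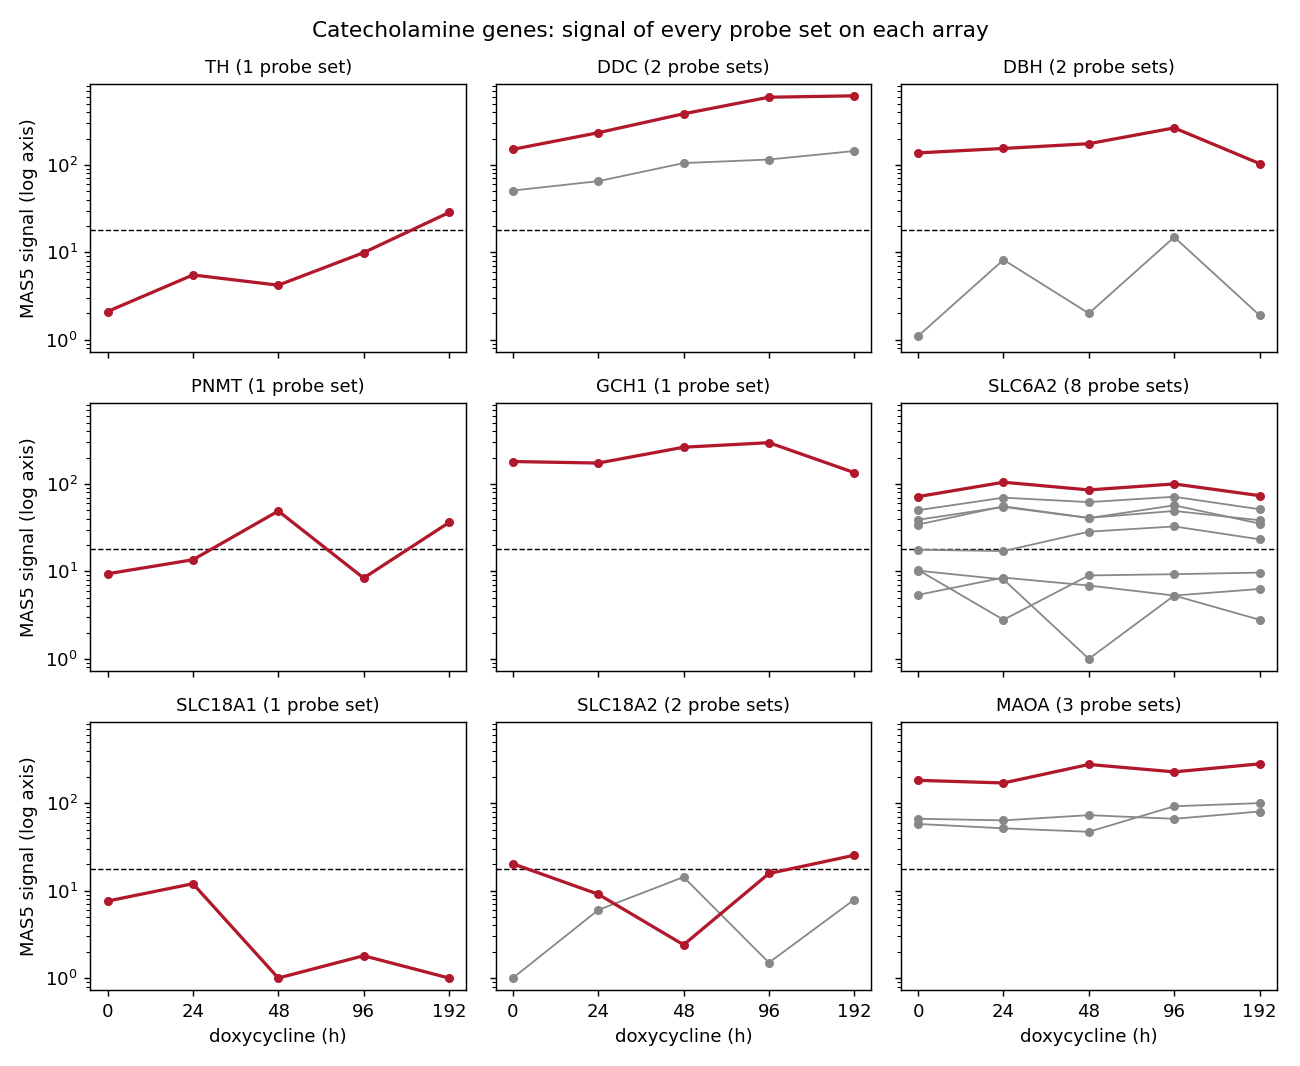
MAS5 signal (log axis) of every probe set of the 9 genes on the 5 arrays, spaced evenly by time step; the brightest probe set of a gene is red, the others are grey, and the dashed line is the signal minimum of 17.9. DDC climbs in both probe sets, DBH and GCH1 are highest at 96 h, and TH, SLC18A1, SLC18A2 and PNMT lie around or below the minimum.

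TH, the enzyme that sets the rate of catecholamine synthesis, was near the lower end of the signal range. Its only probe set read 2.1, 5.5, 4.2, 9.9 and 28.5 from 0 to 192 h. Only the 192 h array lay above the signal minimum, and the mean of 10 kept TH out of the main test. In the fit over all 41091 named probe sets with no filter, TH had a fitted log2 change of 2.04 ± 0.53, an unadjusted p of 0.00836 and a limma adjusted p of 0.327. The exact permutation of the order of the 5 arrays gave a two-sided p of 0.0333 for its slope, where the smallest possible p is 0.0167. The size of this change rests on signals close to the floor of 1.

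DDC, aromatic L-amino acid decarboxylase, was the member with the clearest course. The brighter of its 2 probe sets read 150.4, 233, 383.4, 593.3 and 615.6 from 0 to 192 h. The other read 50.8, 65, 104.7, 115 and 143.9 at the same times. In both probe sets each array was higher than the one before it. DDC was the only one of the 6 tested members with a higher signal at every step in the probe set that stands for the gene, a course shown by 2.33% of all tested genes.

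The fitted log2 change of DDC was 2.13 ± 0.20 (limma adjusted p = 2.12e-04), the 8th smallest p and the 27th largest change among the 11944 genes. The brighter probe set gained 0.62, 0.71, 0.62 and 0.05 on the log2 scale over the 4 successive steps. Nearly all of the gain in this probe set was thus present at 96 h. The other probe set gained 0.33, 0.65, 0.13 and 0.31 over the same steps and had a fitted log2 change of 1.45 ± 0.20 in the fit without a filter. At 192 h the probe sets stood at 4-fold and 2.68-fold of 0 h, so they share the direction but not the size. The exact permutation of array order gave p = 0.0167 for each, the smallest it can give. The call of DDC did not hold in the fit over all named probe sets without a filter (limma adjusted p = 0.0827), in which 0 of 41091 probe sets passed and 4160 (10.1%; 6 of the 21 of these genes) had an unadjusted p below 0.05, or with a variance prior that does not follow the mean (adjusted p = 0.0503). The call of DDC held without each array in turn. The 6 probe sets at an unadjusted p below 0.05 are not 6 genes. They are both DDC probe sets, those of MAOA with fitted changes of 0.65 and 0.91, and those of TH and SLC18A1. TH and SLC18A1 are dim, and the fitted change of SLC18A1 was negative (-1.43).

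Promoter windows from RefSeq (build GRCh38.p14) matched 4 of the 9 genes: DDC, DBH, SLC18A2 and MAOA. The windows of DDC, which rose, and of DBH, the enzyme that acts next on its product, are shown from 250 bases before the annotated start to 20 bases after it, 5′ to 3′ on the gene's strand. The first lies at chr7:50561052-50561321 on the minus strand and the second at chr9:133636113-133636382 on the plus strand. Capitals mark motif matches.
DDC: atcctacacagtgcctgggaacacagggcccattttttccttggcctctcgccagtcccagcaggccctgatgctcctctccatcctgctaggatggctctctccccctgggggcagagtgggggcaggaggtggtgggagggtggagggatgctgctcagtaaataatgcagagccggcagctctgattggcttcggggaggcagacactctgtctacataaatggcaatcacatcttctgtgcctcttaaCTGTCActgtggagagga
DBH: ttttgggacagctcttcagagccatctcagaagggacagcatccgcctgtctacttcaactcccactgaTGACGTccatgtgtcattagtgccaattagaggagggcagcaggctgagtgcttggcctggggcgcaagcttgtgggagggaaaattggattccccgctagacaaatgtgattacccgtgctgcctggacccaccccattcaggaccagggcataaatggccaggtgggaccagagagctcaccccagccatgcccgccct

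The search ran on both strands of the full window of 300 bases. The MEIS hexamer TGACAG matched 1 of the 4 windows, that of DDC, where it lies on the opposite strand at bases 253 to 258, just after the annotated start. It matches 15.8% of the 35116 RefSeq windows of the same length. The core of the cyclic AMP response element, TGACGT, matched DBH (bases 70 to 75) and SLC18A2, against 7.98% of all windows. The full element TGACGTCA, which contains that core, matched SLC18A2, against 1.85% of all windows. The EGR motif GCGNGGGCG matched SLC18A2 (9.43% of all windows). The letters TATAAA (11.5%) had no match in the 4 windows. These matches describe letters in 1 annotated window per gene, and binding was not measured here.

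DBH, dopamine beta-hydroxylase, had no steady course. Its brighter probe set read 137, 153.9, 174.5, 264.4 and 103.3 from 0 to 192 h. The signal was higher than at 0 h on the 3 arrays up to 96 h, when it stood at 1.9-fold, and the 192 h array was the lowest of all. The fitted log2 change was -0.0083 ± 0.39 (95% confidence interval -0.86 to 0.85, limma adjusted p = 0.994). Without the 192 h array the fitted change, scaled to the same 4 steps, was 1.18 and passed the threshold (limma adjusted p = 0.0457), so this 1 array decides the call. The other DBH probe set read 1.1, 8.2, 2, 14.9 and 1.9 and lay below the signal minimum on every array.

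GCH1, the first enzyme of tetrahydrobiopterin synthesis, followed a course like that of DBH. It read 180.8, 173.7, 263.6, 297 and 135 from 0 to 192 h in its only probe set. The 48 and 96 h arrays were the highest and the 192 h array the lowest. The fitted log2 change was -0.02 ± 0.37 (95% confidence interval -0.83 to 0.78, limma adjusted p = 0.985). Without the 192 h array it was 1.08 with a limma adjusted p of 0.0564.

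Both genes thus had their highest array at 96 h and their lowest at 192 h, which 4.8% of all tested genes did. With the offset added, DBH was 2.49-fold and GCH1 2.16-fold lower at 192 h than at 96 h, and 1.09% of all tested genes were at least 2-fold lower. This pattern was singled out after its values were seen and rests on 2 single arrays. Being highest at 96 h was shared by 8 of the 9 neuroblastoma markers tested, DBH among them, against 23.4% of all tested genes. The poly-A spike-ins were lowest on the 96 h array. What part either has in the pattern was not tested. With the spike-in level as a covariate the fitted log2 change was -0.83 ± 0.36 for DBH and -0.93 ± 0.25 for GCH1, and neither passed (limma adjusted p = 0.313 and 0.1).

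PNMT, which makes adrenaline, was measured by 1 probe set with scattered values. It read 9.4, 13.6, 49.1, 8.4 and 36.3 from 0 to 192 h. The 48 and 192 h arrays were high and the 96 h array between them was the lowest. The fitted log2 change was 1.04 ± 0.74 (limma adjusted p = 0.543), and its 95% confidence interval of -0.58 to 2.66 includes 0. The residual SD around the line was 0.96 on the log2 scale, against 0.22 for DDC.

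**Figure D2:**
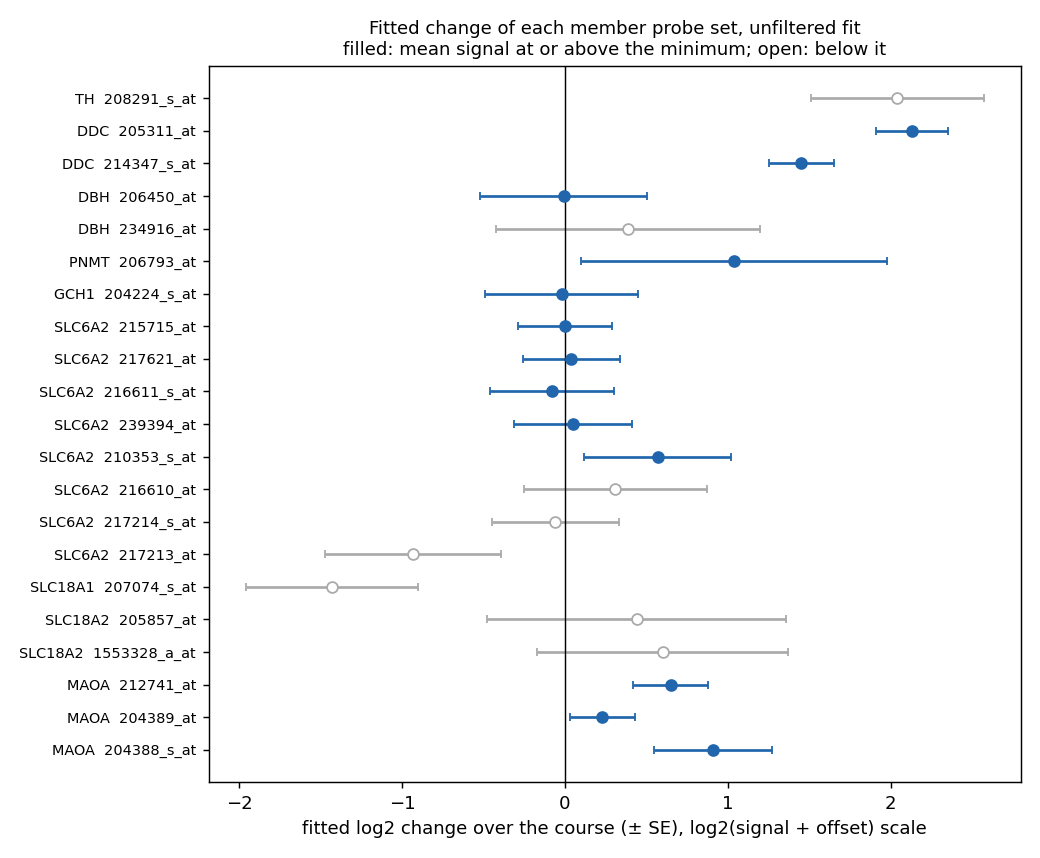
Fitted log2 change over the course with its SE for each of the 21 probe sets, from the fit over all named probe sets without a filter; filled points have a mean signal of at least 17.9, open points lie below it. Both DDC probe sets (2.13 and 1.45) lie far from 0, the 5 filled SLC6A2 probe sets run from -0.08 to 0.57, and the 3 MAOA probe sets from 0.23 to 0.91.

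SLC6A2, the noradrenaline transporter, had 8 probe sets, of which 5 passed the signal minimum and 4 were designed on 1 and the same GenBank record. The brightest read 71.8, 104.8, 85.6, 100.2 and 73.6 from 0 to 192 h. The signal was lowest at 0 and 192 h, and the arrays between them were 1.18-fold to 1.43-fold above 0 h. All 5 probe sets above the minimum were higher at 96 h than at 0 h, by 1.37-fold to 1.67-fold, and all 5 were lower at 192 h than at 96 h. At 24 h 4 of the 5 were above 0 h. The fitted log2 change was 0.0021 ± 0.28 (95% confidence interval -0.61 to 0.61, limma adjusted p = 0.998), and its sign changed under 7 of 14 alternative settings. The 3 probe sets below the minimum never read above 10.4.

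The vesicle transporters were dim throughout. SLC18A1, the form typical of chromaffin cells, read 7.6, 12, 1, 1.8 and 1 from 0 to 192 h, and the 48 and 192 h values are the floor of the scale. SLC18A2, the form typical of neurons, read 20.3, 9.1, 2.4, 15.7 and 25.4 in its brighter probe set and 1, 6, 14.3, 1.5 and 7.9 in the other. The 48 h array was the lowest in the brighter SLC18A2 probe set and the highest in the other, so they ran against each other at these low signals. In the fit without a filter, where no probe set passed, the fitted log2 change was -1.43 ± 0.53 for SLC18A1 (unadjusted p = 0.0332, limma adjusted p = 0.449). It was 0.44 ± 0.92 and 0.60 ± 0.77 for SLC18A2 (unadjusted limma p of 0.65 and 0.463).

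MAOA, monoamine oxidase A, read somewhat higher late in the course. Its brightest probe set read 182.6, 170.4, 277.4, 228.2 and 281.7 from 0 to 192 h. The other 2 read 57.9, 51.6, 47.1, 92.3 and 100.2, and 66.4, 63.6, 73, 66.3 and 80.3. All 3 were below 0 h at 24 h and highest at 192 h, at 1.53-fold, 1.68-fold and 1.2-fold of 0 h. The fitted log2 change was 0.65 ± 0.21 (95% confidence interval 0.19 to 1.12, unadjusted p = 0.00963), and MAOA did not pass after adjustment over all genes (limma adjusted p = 0.127).

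Single arrays against 0 h place the members beside the rest of the array. No tested member was at least 2-fold from 0 h at 24 h, where 0.678% of all tested genes were 2-fold higher. At 48 h DDC (2.5-fold) and PNMT (3.82-fold) were, against 1.08% of genes. At 96 h DDC stood at 3.86-fold, alone among the 6, against 2.19%. At 192 h DDC (4-fold) and PNMT (2.91-fold) were past 2-fold, against 2.29%. PNMT lay below the signal minimum at 0, 24 and 96 h (9.4, 13.6 and 8.4), so its ratios rest on a dim 0 h value. Its mean of 23.4 passed the minimum through the 48 and 192 h arrays (49.1 and 36.3), the same arrays that were past 2-fold. The percentages of all tested genes are therefore a weak yardstick for PNMT. None of the 6 was 2-fold lower than 0 h on any array, where 0.946%, 0.653%, 1.17% and 1.93% of all tested genes were at 24, 48, 96 and 192 h.

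**Figure D3:**
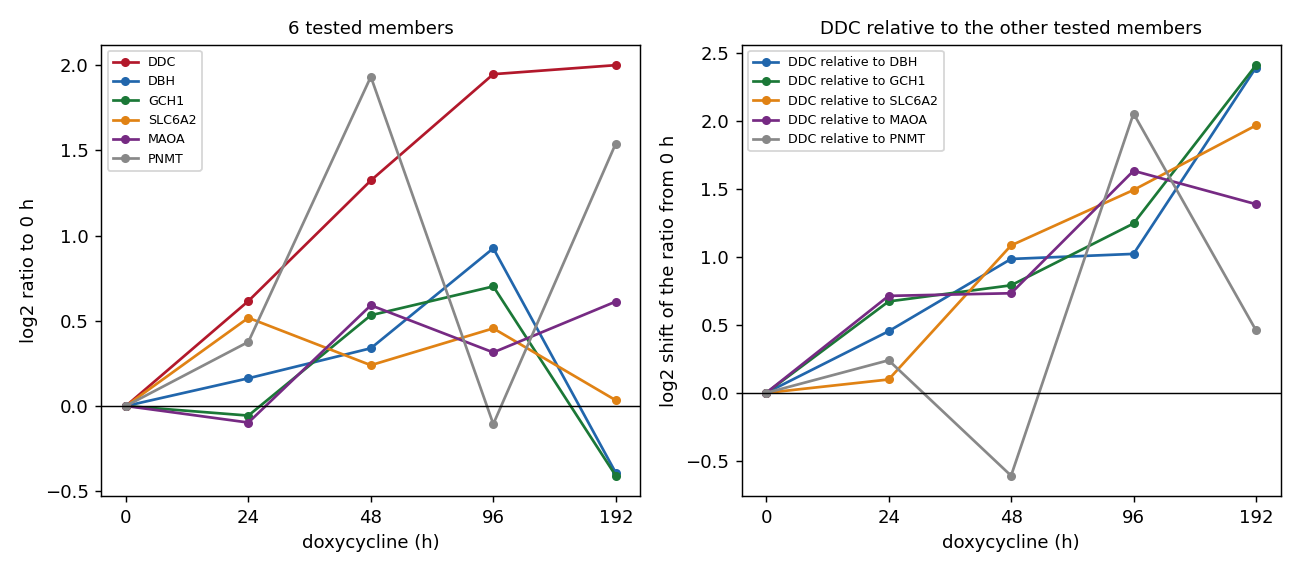
Left, log2 ratio to 0 h of the 6 tested members on the 5 arrays, spaced evenly by time step; right, shift from 0 h of the log2 ratio of DDC to each of the other 5. DDC reaches 2.00 at 192 h, where DBH (-0.39) and GCH1 (-0.41) are below their 0 h level, and DDC relative to DBH, GCH1 and SLC6A2 is higher at each step.

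Whether DDC changed differently from the other members was tested on the log2 ratio of DDC to each of them within an array, with an exact permutation of the order of the 5 arrays, two-sided, adjusted by Benjamini-Hochberg over the 8 members compared. DDC was singled out with its rise known. Relative to DBH the fitted log2 change of DDC was 2.14 ± 0.44, relative to GCH1 2.16 ± 0.39 and relative to SLC6A2 2.13 ± 0.27. Each had an exact permutation p of 0.0167, the smallest possible with 120 orders, and an adjusted p of 0.0333. From 96 to 192 h the log2 change was 0.05 for DDC, -1.32 for DBH, -1.11 for GCH1 and -0.42 for SLC6A2. The differences from DBH and GCH1 thus lean in part on the 192 h array, and these comparisons were not repeated without single arrays. With the mean over all probe sets of a gene the difference from DBH was 1.60 ± 0.76 and did not pass (exact permutation, adjusted p = 0.178). Relative to MAOA the change was 1.48 ± 0.39 with an adjusted p of 0.08 by the same exact permutation, so a difference between DDC and MAOA was not shown. For PNMT it was 1.09 ± 1.30 (exact permutation, adjusted p = 0.59). For the 3 dim members it was 0.10 ± 0.80 for TH, 1.69 ± 1.37 for SLC18A2 and 3.56 ± 0.79 for SLC18A1. The exact permutation p, adjusted, was 0.883 for TH, 0.4 for SLC18A2 and 0.0333 for SLC18A1, and the last rests on values at the floor.

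The 5 tested genes closest to DDC over the 4 log2 ratios to 0 h were PRPH, SCUBE1, SLC7A14, FAM30A and SCN3B, by the root mean square difference. That difference was 0.13 for PRPH, which encodes the intermediate filament peripherin and read 599.3, 1092.8, 1528.7, 2306.7 and 2236.6 on the 5 arrays. It was 0.19 for SCUBE1, 0.22 for SLC7A14, 0.23 for FAM30A and 0.24 for SCN3B, a sodium channel beta subunit that read 74.7, 163.8, 185.5, 323 and 299.4. The other 3 read 49.9, 85.7, 124.9, 168.4 and 182.3 (SCUBE1), 44.6, 74.3, 94.9, 153.7 and 217.4 (SLC7A14), and 7.4, 16.2, 19.9, 40.5 and 54.7 (FAM30A). At 192 h these 3 were above their 96 h signal, while PRPH and SCN3B were below it. FAM30A lay below the signal minimum at 0 and 24 h, so its ratios rest on a dim 0 h value. The list describes likeness over 4 ratios that share the 0 h array.

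Other genes of the pathway were taken from lists written with earlier results of these data known. Of 6 tested tetrahydrobiopterin genes none passed, and their median fitted log2 change was 0.05. GCHFR, the feedback regulator of the GCH1 enzyme, read 355.7, 406.3, 578.5, 626.4 and 512.9, with a fitted change of 0.67 ± 0.20 and a limma adjusted p of 0.107. Like GCH1 it was highest at 96 h, but at 192 h it stayed above its 0 h level. QDPR, which recycles the cofactor, had a fitted change of 0.27 ± 0.13 (limma adjusted p = 0.325).

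Of other breakdown enzymes only 2 were bright enough to test, and neither passed. ALDH2, an aldehyde dehydrogenase that acts on products of monoamine oxidases, had a fitted log2 change of 0.32 ± 0.14 (limma adjusted p = 0.275), and the sulfotransferase gene SULT1A1 had -0.12 ± 0.22 (0.855). MAOB, the second monoamine oxidase, lay below the signal minimum, between 1 and 12.9 in its brightest probe set. Of 4 tested genes for other monoamine transport and cofactor supply none passed (median 0.19). SLC29A4, a low-affinity monoamine transporter, had 0.37 ± 0.27 (0.549), and CYB561, which supplies electrons for DBH in vesicles, had 0.29 ± 0.52 (0.857). The serotonin synthesis genes TPH1 and TPH2 and the serotonin transporter gene SLC6A4 lay below the signal minimum, with no value above 10.5 in the brightest probe set.

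Of 13 adrenergic and dopamine receptor genes with a named probe set only 3 were tested, and none passed (median fitted log2 change 0.19). ADRA2A, an inhibitory receptor for noradrenaline, read 289.8, 424.8, 404.7, 433.9 and 496.6 from 0 to 192 h. All 4 induced arrays were above 0 h, and the fitted change of 0.63 ± 0.17 had a limma adjusted p of 0.0691. ADRA2C had 0.19 ± 0.25 (0.788). The cholinergic genes give the alternative transmitter of this lineage. Of 4 with a probe set 2 were tested and none passed: the vesicular acetylcholine transporter SLC18A3 had 0.35 ± 0.23 (limma adjusted p = 0.49) and CHAT, which makes acetylcholine, 0.26 ± 0.30 (0.743).

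**Figure D4:**
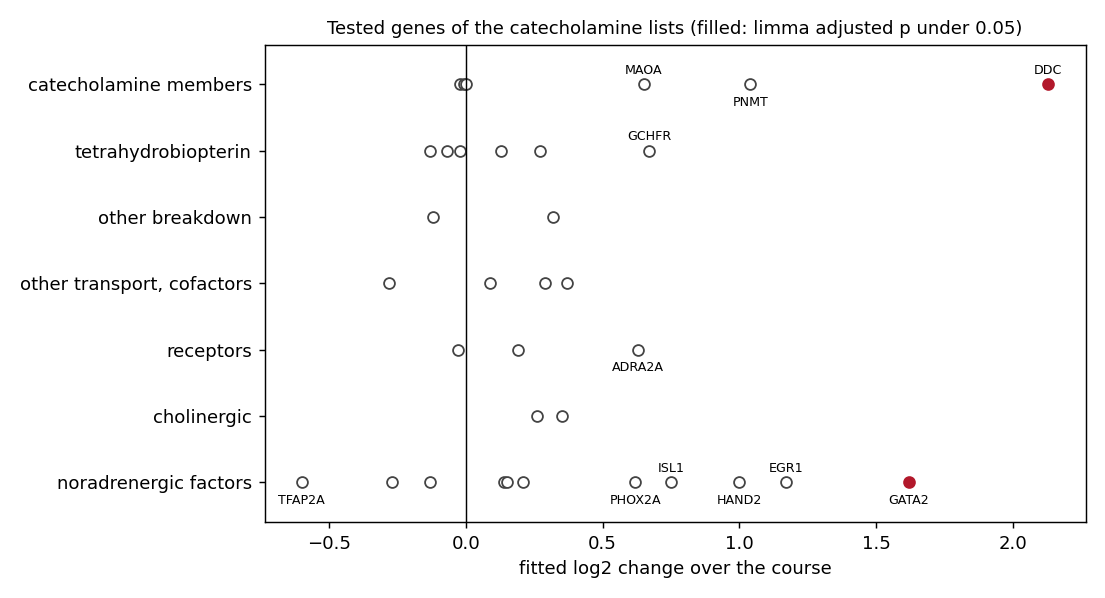
Fitted log2 change over the course of each tested gene (1 point a gene) in the catecholamine genes and the 6 lists around them; filled points passed the limma test. DDC (2.13) and GATA2 (1.62) are the only filled points, and genes beyond 0.5 in either direction carry their names.

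Of 11 tested transcription factors known for their part in noradrenergic cells, or for driving genes of this pathway, 1 rose and none fell, and the median fitted log2 change was 0.21. GATA2, a zinc finger factor of sympathetic neurons, read 44.4, 38.3, 63.8, 119.3 and 112.6 and rose by 1.62 ± 0.32 (limma adjusted p = 0.0171). Its 96 and 192 h arrays were the highest. PHOX2A, a homeodomain factor that drives TH and DBH in developing sympathetic neurons, had 0.62 ± 0.16 (adjusted p = 0.0629). EGR1 (1.17 ± 0.65, limma adjusted p = 0.399), HAND2 (1.0 ± 0.31, adjusted p = 0.108) and ISL1 (0.75 ± 0.24, adjusted p = 0.119) did not pass either. The fitted change was positive for 8 of the 11. It was negative for TFAP2A (-0.60 ± 0.26, limma adjusted p = 0.273), NR4A1 (-0.27 ± 0.50) and INSM1 (-0.13 ± 0.23). ISL1 read 817.5, 925.3, 1189.6, 1722.4 and 1154.1. In all, 7 of these 11 factors were highest at 96 h, against 23.4% of all tested genes. Among the 7 are HAND2, GATA3 and ISL1, which were also counted with the neuroblastoma markers, so the 2 counts overlap.

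**Figure D5:**
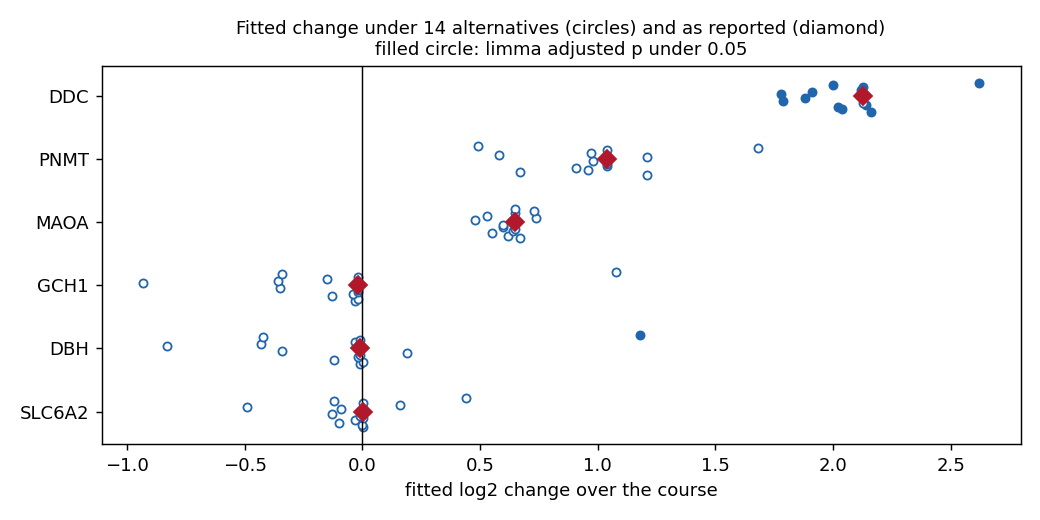
Fitted log2 change of the 6 tested members as reported (diamond) and under 14 alternative settings (circles; filled where the limma adjusted p was below 0.05). DDC stays between 1.78 and 2.62, while DBH spans -0.83 to 1.18 and GCH1 -0.93 to 1.08, their highest values being those without the 192 h array.

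Over the 14 alternatives the fitted log2 change of DDC ran from 1.78 with the spike-in covariate to 2.62 without the 192 h array, and DDC passed in 12 of them. MAOA ran from 0.48 to 0.74 and PNMT from 0.49 to 1.68, and neither passed in any. DBH passed in 1 and GCH1 and SLC6A2 in none.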

How the data were processed

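Total RNA of 5 samples was measured, 1 per time point. MAS5 and GCOS are the tools in the submitters' processing notes, with no version. The values the authors deposited were taken as log2 MAS5 signals because, made linear, 100% of them fell on a grid of 0.1 (tolerance 0.01), with a floor at a log2 of 0. Sources used here do not state the log step or the scaling target. The 2% trimmed means were 100.02 to 100.03 on all arrays, so they were not scaled again. Detection calls were not analysed here.

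Signals were made linear, an offset of 4.7 (the 25th percentile of an array's signals, median of the 5 arrays) was added and log2 was taken. By the platform annotation 41091 probe sets have 1 gene name, 1801 have several and 11721 none here; 62 control probe sets were left out. Symbols were matched by gene identifier to RefSeq (GRCh38.p14) for 41037 probe sets, and 0 changed. The test was limma 3.58.1 in R 4.3.3 (lmFit and eBayes, trend=TRUE; degrees of freedom 3 residual, 9.07 prior), two-sided, adjusted by Benjamini-Hochberg over 11944 genes, each represented by its brightest probe set. The script was tested on simulated data. The members and lists were chosen with earlier results of these data known. Named are all members, list genes past the threshold (otherwise the 2 largest changes of a list), the 5 genes nearest to DDC, and MEIS1; other genes were named after their values were seen. Alternatives changed the offset, scaling, filter, probe set rule, time axis, variance prior, a spike-in covariate and the arrays used.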

Additional observations from a re-analysis of the deposited data

How the results depend on the processing

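No paired analysis was possible because each time point has 1 array. Over all genes, 241 rose and 174 fell. Without each array in turn 121 to 249 rose and 69 to 167 fell, lowest without the 0 h array (leaving out 192 h gave 143 and 97, leaving out 96 h gave 147 and 107). The counts were 97 and 57 with the mean over a gene's probe sets, 118 and 112 with the spike-in covariate, 14 and 8 with a prior that does not follow the mean, and 0 and 0 of 41091 probe sets without a filter, of which 4160 had an unadjusted p below 0.05. Scaling the arrays to 1 median gave 194 and 252, so that 43.5% of calls were rises against 58.1%, and the median change of all genes was -0.11. Of the 6 tested members 1 rose, and 1 to 2 without each array in turn (2 without the 192 h array, DDC and DBH). It was 0 without a filter and 0 with the prior that does not follow the mean, where DDC kept a fitted change of 2.13 in both. No member fell under any of the 14 alternatives. Signs turned for DBH with the larger offset (0.0041), with the mean over probe sets (0.19) and without the 192 h array (1.18), and for GCH1 without that array (1.08). On 4 arrays DBH otherwise went down to -0.43 and GCH1 to -0.36. For SLC6A2 the change was -0.10 with equal medians, -0.03 with quantile normalization, -0.01 with the mean over probe sets, -0.13 on linear hours, -0.09 with the covariate, and between -0.49 (0 h left out; -0.12 with 96 h left out) and 0.44 (192 h left out) on 4 arrays. DDC relative to TH turned to -0.68 with the smaller offset and -0.25 with the mean over probe sets, and DDC relative to DBH was 1.60 with that mean and no longer passed. The other differences of DDC kept direction and call under the 3 alternatives tried. The cause of these shifts was not tested. MAS5 signals near the floor carry little information, which limits TH, PNMT, SLC18A1 and SLC18A2.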
